A study of Homo sapiens with 12 samples.

Results

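Apart from a few assembly chaperones, the genes described here encode the subunits of the proteasome, the protease that breaks down proteins tagged with ubiquitin. They were taken by symbol: PSMA and PSMB genes of the core, and PSMC and PSMD genes of the cap that binds its ends, each with a number, leaving out PSMB8, PSMB9, PSMB10 and PSMB11. This gave 32 of the 18417 genes measured, 15 of the core and 17 of the cap. Counted with the cap by their symbols are PSMD5, PSMD9 and PSMD10, which encode chaperones for assembling it rather than subunits. Each gene was read from the probe set that carried its symbol alone and had the highest mean level, and PSMC5, PSMD7 and PSMD13 were not analysed here.

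RNA was measured on 12 arrays in Calu-3 cells, a human lung adenocarcinoma line used as a model of airway epithelium, transfected with a short RNA by the lipid reagent Lipofectamine RNAiMAX. There were 6 arrays of cells given NC1, a scrambled control RNA, 3 of cells given an siRNA against SIN3A, and 3 of cells that received a synthetic miR-138 mimic. The control cells were thus transfected too, and untransfected cells were not analysed here. All groups come from a single cell line, the labels call the arrays biological replicates without naming separate cultures, and the p-values therefore measure array-to-array spread, which may be technical. The extraction notes speak of primary cultures where the labels say Calu-3, and the sources used here give no doses or harvest times.

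The proteasome core is a barrel of stacked rings. Alpha subunits (PSMA genes) form the outer rings and gate the entrance, and beta subunits (PSMB genes) form the inner rings, where PSMB5, PSMB6 and PSMB7 carry the cutting sites. The cap has a base, in which a ring of ATPases (PSMC genes) unfolds the substrate, and a lid, in which PSMD14 cuts off the ubiquitin chain. In airway epithelium the proteasome is known for destroying CFTR that fails to fold in the endoplasmic reticulum, and NFE2L1 is the transcription factor that raises proteasome genes when proteasome activity runs short.

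The mimicked microRNA is shown because it is the agent of a whole group. RefSeq (GRCh38.p14) gives a single mature form from the 5′ arm for both of its loci, chr3:44114234-44114256 and chr16:56858527-56858549, each on the plus strand, with the seed (bases 2 to 8) in capitals here. The labels do not say which arm the mimic copies.
hsa-miR-138-5p: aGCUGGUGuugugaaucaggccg

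Upstream sequences are shown for those genes called with SIN3A siRNA (results below) for which the RefSeq promoter table has an entry, since PSMA2 went the other way from the rest. Each run is the 150 bases before the start site on the gene's own strand. Capitals mark matches, on either strand, to CCAAT (the box bound by NF-Y), GGGCGG (the GC box), CCGGAAG (the ETS core) or TGACNNNGC (the core of the antioxidant response element, which NFE2L1 and NFE2L2 bind), and no marked matches overlap. The places are chr1:109426449-109426598 (minus strand) for PSMA5, chr17:38752591-38752740 (plus) for PSMB3, chr19:38374421-38374570 (plus) for PSMD8 and chr7:42932175-42932324 (minus) for PSMA2.
PSMA5: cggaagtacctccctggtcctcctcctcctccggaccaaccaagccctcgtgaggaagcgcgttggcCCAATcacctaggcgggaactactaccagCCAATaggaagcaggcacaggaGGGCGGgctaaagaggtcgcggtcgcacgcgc
PSMB3: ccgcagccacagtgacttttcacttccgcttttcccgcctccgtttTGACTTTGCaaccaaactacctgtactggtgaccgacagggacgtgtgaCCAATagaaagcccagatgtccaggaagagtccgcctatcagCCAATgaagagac
PSMD8: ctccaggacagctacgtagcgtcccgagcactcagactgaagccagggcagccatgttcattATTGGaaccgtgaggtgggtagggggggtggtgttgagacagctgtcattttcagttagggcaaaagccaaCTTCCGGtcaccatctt
PSMA2: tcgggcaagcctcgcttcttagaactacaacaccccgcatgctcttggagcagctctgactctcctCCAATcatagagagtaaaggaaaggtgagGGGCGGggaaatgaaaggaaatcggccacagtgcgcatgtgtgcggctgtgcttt

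All 4 of these runs hold a CCAAT match, PSMA2 among them. Over the full table windows of 300 bases (250 before and 50 after the start), 27 members had an entry, and CCAAT stood in 14 of them (51.9%) against 42.2% of 14239 genes of the array. The antioxidant core stood in 8 members (29.6%, against 18.3% of all genes), of which 2 of 11 were core genes (PSMA4 and PSMB3) and 6 of 16 cap genes (PSMC4, PSMD1, PSMD3, PSMD5, PSMD9 and PSMD12). The ETS core stood in 2 of 11 core and 8 of 16 cap genes (16.8% of all genes), and the GC box in 17 members (63.0%, against 65.9%). These are matches of letters and were not tested as binding sites.

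Levels below are the deposited log2 values, so a difference of 1 is a doubling, and precision is limited by how few arrays there are. Array medians lay between 5.09 and 5.16. SIN3A, the target of the siRNA, was at 6.36 to 7.34 with NC1, 5.88 to 6.17 with the siRNA (log2 difference -0.88, limma adjusted p = 0.0111) and 5.93 to 6.25 with the mimic. The mean level of 8 airway epithelial markers was 8.07 to 8.17 over the NC1 arrays, 7.93 to 8.05 with the siRNA and 7.96 to 8.02 with the mimic. Markers of other cell types were at 4.37 to 4.62 (7 fibroblast genes), 5.12 to 5.35 (6 leukocyte genes) and 4.31 to 4.52 (6 endothelial genes) over all 12 arrays, and of the marker genes CFTR and LCP1 alone were called with the siRNA (limma adjusted p = 0.000203 and 0.0226, both lower). Array levels are of RNA from the whole culture, so fewer cells of a kind and less RNA per cell cannot be told apart.

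The NC1 arrays differed among themselves, replicates 1 to 3 from replicates 4 to 6, and the members' counts and the called members are given against each part as well as against all NC1 arrays. The differences come from limma, a linear model across all genes, with 3 group means or, for the parts, 4. A gene is called changed at a Benjamini-Hochberg adjusted p under 0.05 over all 18417 genes. NC1 3 stood apart, for these genes and for other well-expressed ones. It was the lowest of the 12 arrays for 17 of the 32 members, where 15.5% of all genes have it lowest, and the median member lay 0.24 below its mean over all arrays there (deviation -0.24). The deviation there was alike over genes with a mean level of 7 or more (-0.23), and over the genes of the CCT chaperonin (-0.34), eIF3 (-0.32) and the COP9 signalosome (-0.30), which are other large complexes.

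**Figure D1:**
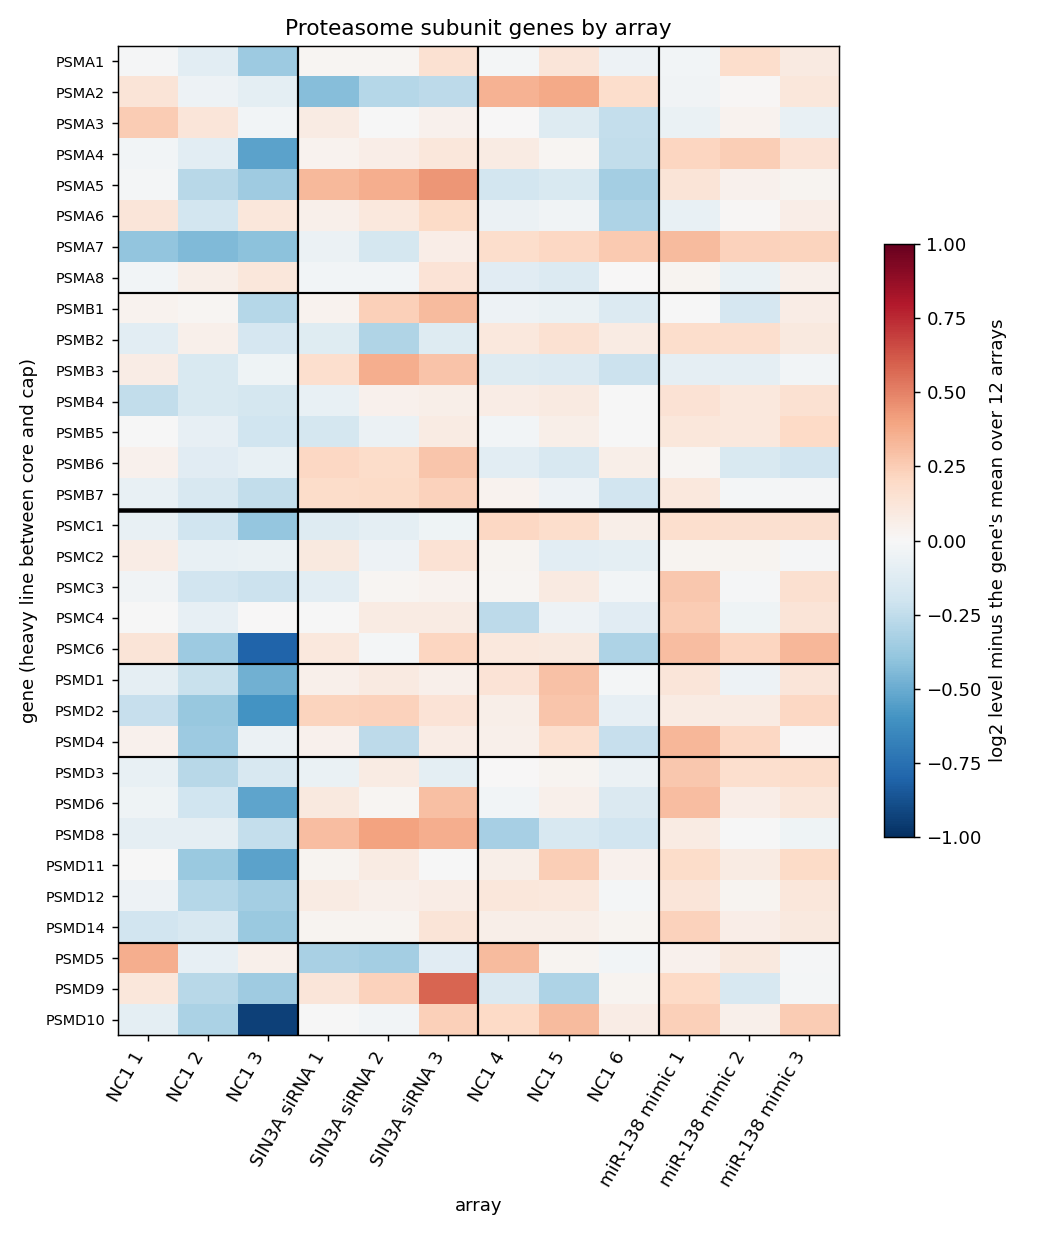
Log2 level of each of the 32 proteasome genes (rows) minus that gene's mean over the 12 arrays, for every array (columns, with the siRNA arrays after NC1 1 to 3 and the mimic arrays after NC1 4 to 6). Rows follow the place in the complex, outer ring, inner ring, base ATPases, other base subunits, lid and base assembly chaperones. NC1 3 is blue in most rows, PSMA5 and PSMD8 are red in the siRNA arrays, and PSMA2 is blue there.

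The siRNA arrays show where the subunit genes stood once SIN3A, the scaffold of a histone deacetylase repressor complex, had been knocked down. Of the 32 members 4 rose (PSMA5, PSMB3, PSMB7 and PSMD8), 1 fell (PSMA2) and 27 did not pass the test. That is 15.6% called, where 4.01% of all genes were called (2.35% higher and 1.66% lower). The median member stood 0.14 above NC1, and the median of all genes was -0.01. The genes measured at a mean level of 7 or more, which take in 26 of the members, are the closer background: 11.8% of those 2072 genes were called, with a median of 0.07.

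In the outer ring of the core PSMA5 rose, and this was the largest rise among the members. Its levels were 8.36, 8.10, 8.02, 8.19, 8.23 and 8.04 on the NC1 arrays 1 to 6, and 8.70, 8.74 and 8.82 on the siRNA arrays. Every siRNA array lay above every NC1 array. The rise was 1.51-fold (log2 0.60, SE 0.08, limma adjusted p = 0.00225), with log2 0.59 from NC1 1 to 3 and 0.60 from NC1 4 to 6.

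PSMA2, another subunit of the same ring, fell. It was at 9.49, 9.31, 9.26, 9.70, 9.73 and 9.53 on the NC1 arrays and at 8.93, 9.07 and 9.10 with the siRNA. The groups again did not overlap, with the siRNA arrays at the bottom. The fall was 1.38-fold (log2 -0.47, SE 0.11, limma adjusted p = 0.0235), but the control parts set its size: -0.32 against NC1 1 to 3 (adjusted p = 0.0634) and -0.62 against NC1 4 to 6 (adjusted p = 0.00039). Without siRNA array 1, 2 or 3 its adjusted p was 0.119, 0.0823 or 0.0798, so that its call rests on all of them. PSMA2 and PSMA5 therefore moved in opposite directions in the same cells, although they sit in the same ring.

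The other outer-ring genes did not pass with the siRNA against all NC1 arrays. Their log2 differences ran from 0.04 (PSMA3) to 0.21 (PSMA4), with PSMA1, PSMA6 and PSMA7 at 0.13, 0.18 and 0.05. PSMA7 hid a split in the control. It was at 9.32, 9.28 and 9.31 on NC1 1 to 3, at 9.90, 9.93 and 9.98 on NC1 4 to 6, and at 9.66, 9.54 and 9.79 with the siRNA. The siRNA arrays thus lay between the parts, which were 1.55-fold apart. Against NC1 1 to 3 the gene was called higher (0.36, adjusted p = 0.0202), and against NC1 4 to 6 it was at -0.27 (adjusted p = 0.0523). PSMA8, the alpha subunit of the testis proteasome that takes the place of PSMA7 there, was at 2.85 to 3.12 on the 12 arrays, near the floor of a table whose lowest value is 1.43.

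In the inner ring PSMB3 and PSMB7 rose. PSMB3, a beta subunit without a cutting site, was at 10.11, 9.88, 9.99, 9.90, 9.90 and 9.82 with NC1 and at 10.20, 10.40 and 10.32 with the siRNA. All siRNA arrays were above all NC1 arrays. The rise was 1.29-fold (log2 0.37, SE 0.08, limma adjusted p = 0.0176), called against each part (0.31 and 0.43), and lost without siRNA array 2 (adjusted p = 0.108) or 3 (0.0868).

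PSMB7, which carries the trypsin-like site, was at 8.38, 8.30, 8.22, 8.49, 8.41 and 8.27 with NC1 and at 8.64, 8.65 and 8.69 with the siRNA. Its siRNA arrays were close together and above the highest NC1 array. It rose 1.25-fold (log2 0.32, SE 0.08, limma adjusted p = 0.0316). The log2 rise was 0.36 from NC1 1 to 3 but missed the threshold from NC1 4 to 6 (0.27, adjusted p = 0.0552). The call was also lost without NC1 6 (0.0574) and without siRNA array 1, 2 or 3 (0.0956, 0.111 and 0.139).

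Of the other catalytic subunits, PSMB6, with the caspase-like site, was at 8.03, 7.87, 7.91, 7.88, 7.82 and 8.05 with NC1 and at 8.19, 8.17 and 8.26 with the siRNA. Those arrays too were all above NC1, yet the difference missed the threshold (log2 0.28, SE 0.08, limma adjusted p = 0.0589), and against the parts it was 0.27 and 0.29 (adjusted p = 0.101 and 0.0512). PSMB5, with the chymotrypsin-like site that proteasome inhibitors block, was at 7.16, 7.08, 6.96, 7.13, 7.22 and 7.16 with NC1 and at 6.99, 7.10 and 7.24 with the siRNA. Its groups overlapped throughout, and the difference was -0.01 with a 95% interval of -0.18 to 0.16. PSMB1 (0.28), PSMB4 (0.08) and PSMB2 (-0.20) did not pass either, and PSMB2 was called lower against NC1 4 to 6 alone (-0.30, adjusted p = 0.039).

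In the cap PSMD8, a lid subunit, was the only member called with the siRNA against all NC1 arrays. Its levels were 7.24, 7.24, 7.09, 6.996, 7.17 and 7.14 with NC1 and 7.64, 7.73 and 7.69 with the siRNA. The gap between the groups was wider than the whole range of the NC1 arrays. PSMD8 rose 1.46-fold (log2 0.54, SE 0.08, limma adjusted p = 0.00213), by 0.50 against NC1 1 to 3 and 0.59 against NC1 4 to 6. PSMA5 and PSMD8 kept their calls under each alternative run, single arrays left out included.

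The remaining lid genes PSMD3, PSMD6, PSMD11, PSMD12 and PSMD14 stood at 0.06 to 0.29 with the siRNA and did not pass. The base ATPases ran from -0.05 (PSMC1) to 0.29 (PSMC6), and the other base genes PSMD1, PSMD2 and PSMD4 were at 0.13, 0.36 and 0.02. PSMD2, a large scaffold subunit of the base, was at 6.67, 6.52 and 6.305 on NC1 1 to 3, at 6.96, 7.17 and 6.82 on NC1 4 to 6 and at 7.12, 7.13 and 7.04 with the siRNA. The siRNA arrays were above NC1 1 to 3 and inside the range of NC1 4 to 6. PSMD2 was accordingly called against NC1 1 to 3 (0.60, SE 0.11, limma adjusted p = 0.00416) and not against NC1 4 to 6 (0.11, adjusted p = 0.626).

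Those PSMD genes that encode chaperones for assembling the base did not move alike. PSMD9 was at 5.46 to 5.93 with NC1 and at 5.94, 6.04 and 6.40 with the siRNA, and PSMD5 was at 5.11 to 5.55 and at 4.86, 4.84 and 5.07. The siRNA arrays were above all NC1 arrays for the first and below them for the second, but neither passed (log2 0.47 and -0.37, SE 0.13 and 0.10, limma adjusted p = 0.0549 and 0.065), nor did they against a part (0.48 and 0.45 for PSMD9, -0.37 from each part for PSMD5). PSMD10 overlapped (0.20, SE 0.20).

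By arrays alone, 7 members (5 core, 2 cap) had all siRNA arrays above all NC1 arrays and 2 had them below. That is 21.9% and 6.25% of members, beside 5.49% and 3.53% of all genes. Such shares were not counted for genes at a level of 7 or more, the closer background. Against NC1 1 to 3, 6 members rose and 0 fell (of all genes 3.66% were called higher and 2.04% lower, 5.7% in all), with a median of 0.27. These are 18.8% of members, beside 17.4% of genes at a level of 7 or more, whose median was 0.13. Against NC1 4 to 6, 3 rose and 2 fell (5.16% of all genes were called higher and 6.28% lower, 11.4% in all), with a median of 0.08. These are 15.6% of members, a lower share than the 32.3% of genes at a level of 7 or more, whose median was -0.01. PSMA5, PSMB3 and PSMD8 were the 3 members called higher against each part. The share of all genes called higher against both parts was not counted, so that count has no background. In the core the medians against the parts were 0.22 and 0.12, and in the cap they were 0.30 and 0.00. The count of 5 called members became 3, 2 or 2 without siRNA array 1, 2 or 3. Calls over all genes fell in the same runs, from 739 to 254, 191 and 165.

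**Figure D2:**
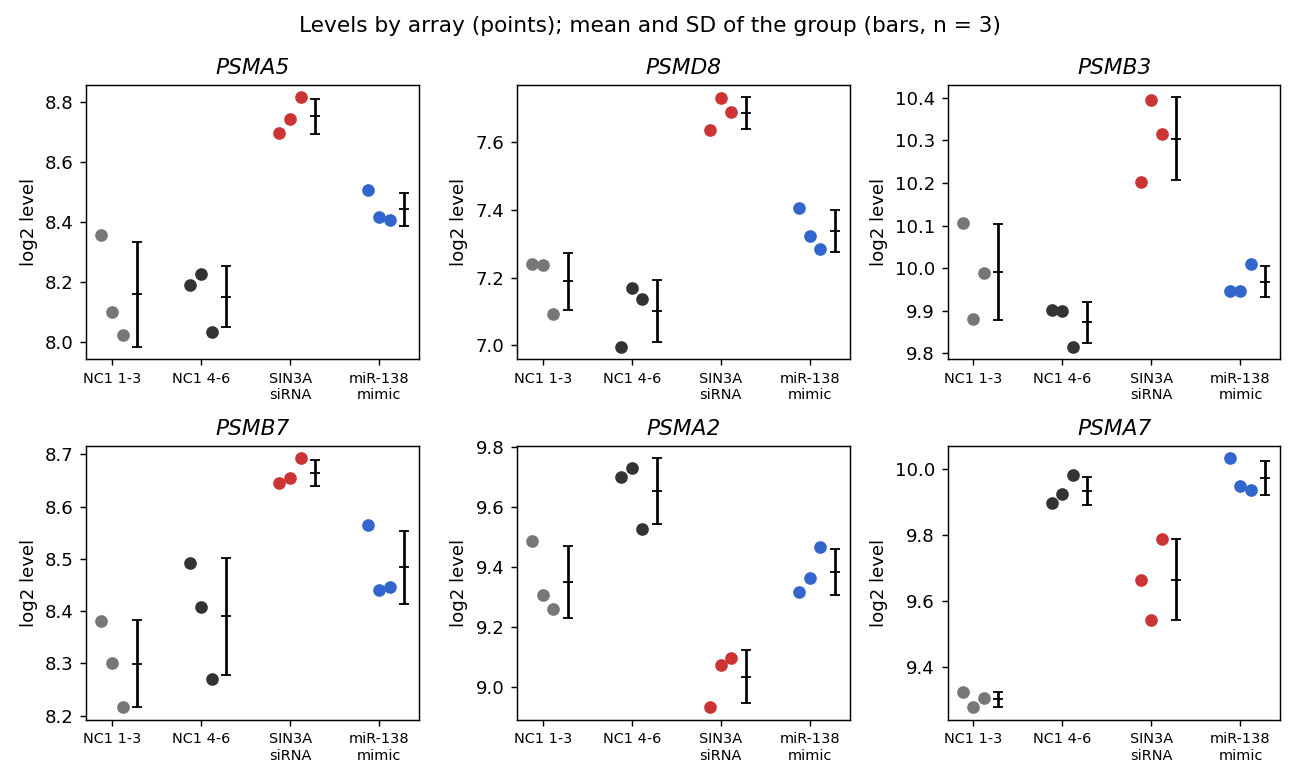
Log2 level on each array (points) of PSMA5, PSMD8, PSMB3, PSMB7, PSMA2 and PSMA7, with the mean and SD of each group of 3 arrays beside them; the axes do not start at 0. The siRNA arrays of PSMA5 (8.70 to 8.82) and PSMD8 (7.64 to 7.73) lie above all others, those of PSMA2 lie below, and PSMA7 separates NC1 1 to 3 (9.28 to 9.32) from NC1 4 to 6 (9.90 to 9.98).

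With the miR-138 mimic the subunit genes stood somewhat above NC1, but 0 of 32 passed limma's test, where 1.04% of all genes were called (0.641% higher and 0.402% lower). At an unadjusted p under 0.05 there were 12 members. The share of all genes under that unadjusted threshold was not counted, so this count and those like it below have no background. The median member was at 0.19, in the core at 0.13 and in the cap at 0.20, with a median of -0.01 over all genes and 0.08 over genes at a level of 7 or more, of which 3.19% were called. For 9 members (4 core, 5 cap) all mimic arrays lay above all NC1 arrays (28.1%, beside 3.89% of all genes), and for 0 they lay below (2.54% of all genes). Here too the share among genes at a level of 7 or more was not counted.

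PSMD3 and PSMA5 were the members closest to a call. PSMA5 was at 8.51, 8.42 and 8.41 with the mimic, above every NC1 array and below every siRNA array (log2 0.29 against NC1, SE 0.08, limma adjusted p = 0.143). PSMD3, a lid scaffold, was at 8.49, 8.29, 8.40, 8.57, 8.59 and 8.50 with NC1 and at 8.84, 8.73 and 8.74 with the mimic. The mimic arrays were all higher (0.30, SE 0.08, adjusted p = 0.122), while the siRNA arrays, at 8.50, 8.64 and 8.47, overlapped NC1. PSMB5 too had its mimic arrays (7.27, 7.26 and 7.36) above all NC1 arrays, by 0.18 (SE 0.08, adjusted p = 0.406).

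The part of the control decided how many members were called with the mimic. Against NC1 1 to 3, 12 members rose (3 core, 9 cap) and 0 fell, 37.5% called beside 8.55% of all genes (6.01% higher and 2.54% lower) and 28.6% of genes at a level of 7 or more. Against NC1 4 to 6, 0 were called by limma (3.49% of all genes, 1.59% higher and 1.89% lower, and 9.99% of genes at a level of 7 or more; 5 members at an unadjusted p under 0.05), and the median was 0.08. The rises against NC1 1 to 3 were those of PSMA4, PSMA7, PSMB4, PSMC1, PSMC6, PSMD2, PSMD3, PSMD6, PSMD10, PSMD11, PSMD12 and PSMD14, from 0.31 (PSMD12) to 0.67 (PSMA7). Against NC1 4 to 6 the same genes ran from -0.02 (PSMD10) to 0.32 (PSMC6). The siRNA and the mimic share their control arrays, so the counts against NC1 are not independent of each other.

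PSMC1 and PSMC6, ATPases of the base, had a further probe set each, which the gene values do not use. For PSMC1 the probe set used was at 9.40, 9.28 and 9.09 on NC1 1 to 3 and at 9.68, 9.65 and 9.53 on NC1 4 to 6. It was at 9.35, 9.38 and 9.43 with the siRNA and at 9.64, 9.63 and 9.63 with the mimic. The other probe set of PSMC1 showed the same order of groups (9.02 to 9.36 on NC1 1 to 3, 9.43 to 9.60 on NC1 4 to 6 and 9.54 to 9.56 with the mimic). For PSMC6 the probe set used was at 8.34, 8.24 and 8.36 with the mimic, above all NC1 arrays (7.22 to 8.16), while the other was at 6.66 to 6.71 with the mimic and overlapped NC1 (5.77 to 6.84). The separation of PSMC6 from NC1 thus held in the chosen probe set alone.

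Set directly against each other, mimic and siRNA gave 0 of 32 members called by limma (1.57% of all genes, 0.679% higher and 0.89% lower, and 5.79% of genes at a level of 7 or more; 9 members at an unadjusted p under 0.05). The median difference, mimic minus siRNA, was 0.04, and it was -0.01 after a second quantile normalization. PSMD8 was lower with the mimic by 0.35 on the log2 scale (difference -0.35, 95% interval -0.53 to -0.16, limma adjusted p = 0.0611), PSMB3 was at -0.34 (-0.53 to -0.14, adjusted p = 0.0822) and PSMB6 at -0.33 (-0.52 to -0.14, adjusted p = 0.0831). In the other direction PSMA2 was at 0.35 (0.09 to 0.61, adjusted p = 0.191) and PSMB2 at 0.33 (0.12 to 0.54, adjusted p = 0.117). These intervals are not adjusted for the number of genes. When the mimic was set against NC1 4 to 6 and the siRNA against NC1 1 to 3, the median difference of these changes was -0.14 and again 0 of 32 were called by limma (2.09% of all genes, 0.896% higher and 1.19% lower; 8 members at an unadjusted p under 0.05). Genes at a level of 7 or more had a median of -0.12 in that comparison.

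Most members called between the parts of the control were cap genes, but the cap's share was near that of genes at a level of 7 or more. Of the 32 members 7 were higher in NC1 4 to 6 than in NC1 1 to 3 and 0 lower, 21.9% beside 10% of all genes (6.86% higher and 3.18% lower) and 31.3% of genes at a level of 7 or more. Of these 7, 6 belonged to the cap (PSMC1, PSMD1, PSMD2, PSMD10, PSMD11 and PSMD14, 35.3% of 17) and 1 to the core (PSMA7, 6.67% of 15). The difference in share between core and cap was not tested. The median was 0.22 in the cap and 0.09 in the core, beside 0.14 for genes at a level of 7 or more.

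PSMD10, a base assembly chaperone also known as gankyrin, was at 5.99, 5.77 and 5.15 on NC1 1 to 3 and at 6.29, 6.40 and 6.17 on NC1 4 to 6 (log2 0.65, SE 0.16, limma adjusted p = 0.0156). PSMD11, a lid subunit, was at 8.05, 7.68 and 7.52 on the first part and at 8.11, 8.30 and 8.09 on the second (0.42, SE 0.12, adjusted p = 0.0293). PSMD14, the deubiquitinase of the lid, was at 8.63, 8.66 and 8.45 and at 8.88, 8.88 and 8.85 (0.29, SE 0.09, adjusted p = 0.0448). In each of these genes the parts did not overlap, and NC1 3 was the lowest array. PSMA7 had the surest difference (0.63, SE 0.09, adjusted p = 0.000156).

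NC1 3 and the scaling bore on this count. Without NC1 3 it was 3 members in place of 7, without NC1 4 it was 2 and without NC1 5 it was 1, the core gene PSMA7. After a second quantile normalization PSMA7, PSMD2 and PSMD10 were called higher and PSMA3 lower, and the median over members was 0.02 in place of 0.17. Over all genes the main fit gave 1850 calls. Their counts in these alternative runs are not given here, so a loss particular to the members cannot be told from a general one. PSMA7 kept its call under all 17 alternatives run on this comparison. PSMD14 lost its call in 11 of the 17, with a difference of 0.10 (adjusted p = 0.488) after the second normalization, and PSMD11 lost its own in 6, among them the fit without NC1 3 (adjusted p = 0.118). PSMB4 was close to the threshold, at 9.83, 9.93 and 9.90 on the first part and 10.15, 10.16 and 10.07 on the second (0.24, adjusted p = 0.0712).

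**Figure D3:**
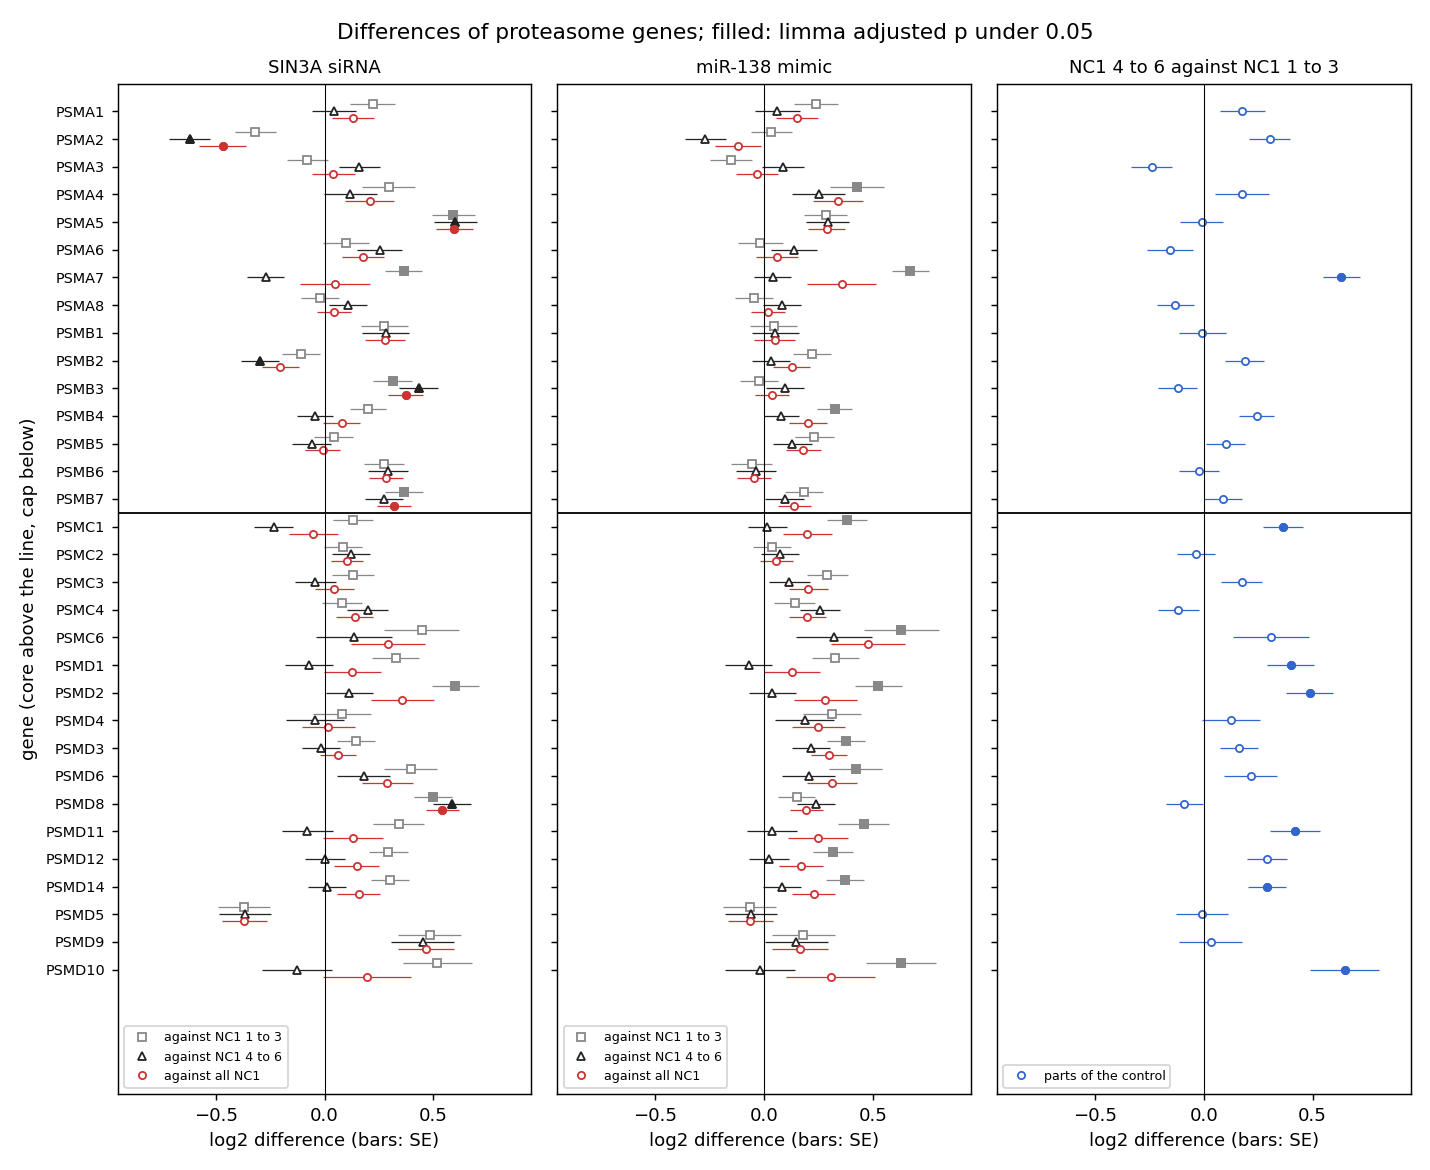
Log2 difference of each member with SIN3A siRNA (left) and with the miR-138 mimic (middle) against NC1 1 to 3 (grey squares), NC1 4 to 6 (black triangles) and all NC1 arrays (red circles), and between the parts of the control (right). Bars are the SE of the limma fit, filled symbols have an adjusted p under 0.05, and the line separates core (above) from cap (below). PSMA5, PSMB3 and PSMD8 are filled against either part with the siRNA, and the cap holds 6 of the 7 filled symbols on the right.

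The proteasome works with many other proteins, whose genes were taken as whole lists. Among the activators and the inhibitor (PSME1 to PSME4 and PSMF1) 1 of 5 rose with the siRNA. It was PSME4, which encodes the nuclear activator PA200, at 6.64, 6.84, 6.24, 6.73, 6.66 and 6.25 with NC1 and at 7.09, 7.22 and 7.13 with the siRNA. All its siRNA arrays were above all NC1 arrays (log2 0.59, SE 0.12, limma adjusted p = 0.0161), by 0.57 and 0.60 against the parts. Among 10 further cap subunits and associated proteins 0 rose and 1 fell. That was UCHL5, a deubiquitinase of the cap, at 6.94 to 7.88 with NC1 and at 6.83, 6.90 and 6.92 with the siRNA (-0.60, SE 0.16, adjusted p = 0.0445), with -0.37 against NC1 1 to 3 (adjusted p = 0.125) and -0.83 against NC1 4 to 6.

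Of the 5 chaperones that assemble the core (PSMG1 to PSMG4 and POMP), 0 passed with either intervention against all NC1 arrays, and the medians were 0.10 with each. Of 3 ubiquitin and activating-enzyme genes, 7 genes of ubiquitin shuttling and unfolding, and 9 regulators of proteasome genes, 0 passed with the siRNA or the mimic on that basis. Among the regulators, NFE2L1 differed between the interventions. It was at 6.60, 6.58, 6.33, 6.83, 7.03 and 6.76 with NC1, at 6.51, 6.66 and 6.50 with the siRNA and at 7.17, 7.10 and 7.20 with the mimic. The mimic arrays were above all others (0.46 against NC1, SE 0.12, limma adjusted p = 0.0893), and the mimic-minus-siRNA difference passed (0.60, SE 0.14, adjusted p = 0.0455). Against the parts the mimic stood at 0.65 (NC1 1 to 3, adjusted p = 0.000719) and 0.28 (NC1 4 to 6, adjusted p = 0.191), and the siRNA at 0.05 and -0.32. With the mimic set against NC1 4 to 6 and the siRNA against NC1 1 to 3, the difference of these changes was 0.23 (SE 0.14, adjusted p = 0.556), so the call was lost.

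The immunoproteasome genes, which replace the cutting subunits of the core when interferon acts, went opposite to the members between the control parts. PSMB9 was at 8.80, 8.65 and 8.86 on NC1 1 to 3 and at 7.30, 7.17 and 7.17 on NC1 4 to 6 (log2 -1.56, SE 0.11, limma adjusted p = 2.03e-07), and PSMB8 fell too (-0.52, adjusted p = 0.0214). With the siRNA PSMB9 was at 8.57, 8.58 and 8.67 and with the mimic at 8.52, 8.40 and 8.85, near the level of NC1 1 to 3 in each. Against all NC1 arrays 0 of 3 immunoproteasome genes passed with either intervention. Against NC1 4 to 6 PSMB9 was called higher with each (1.399 with the siRNA and 1.38 with the mimic), and against NC1 1 to 3 with neither (-0.16 and -0.18).

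Other large complexes set the scale for these shifts. Between the parts of the control, 3 of 8 genes of the CCT chaperonin (median 0.32), 4 of 12 of the translation factor eIF3 (0.26) and 0 of 9 of the COP9 signalosome, whose subunits resemble those of the lid (0.22), were higher in NC1 4 to 6, and 0 were lower. Their medians were as high as that of the proteasome cap (0.22) or higher. With the siRNA against all NC1 arrays 0 of 8, 2 of 12 and 0 of 9 of them rose (EIF3F at 0.29 and EIF3J at 0.40), with medians of -0.05, 0.11 and 0.17, beside 0.14 for the proteasome. Against NC1 4 to 6 the siRNA arrays gave 2 CCT genes lower, CCT3 and CCT4, and for eIF3 2 genes higher and 1 lower. With the mimic 0 of each were called, with medians of 0.09, 0.12 and 0.10.

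**Figure D4:**
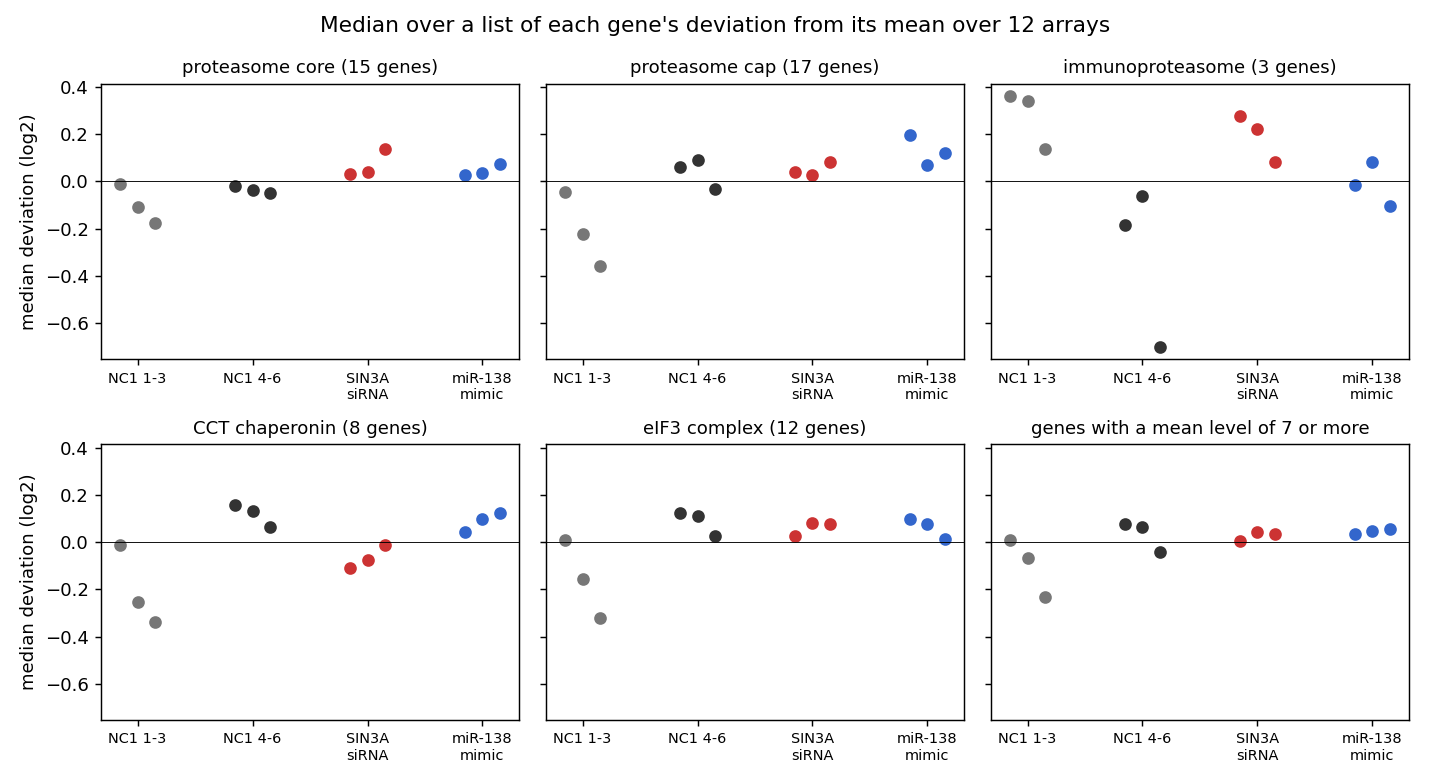
Median, over the genes of a list, of the log2 deviation of each gene from its mean over 12 arrays, for every array (points). The panels show proteasome core and cap, immunoproteasome, CCT chaperonin, eIF3 and the 2072 genes with a mean level of 7 or more; NC1 3 is the lowest array in the core, cap, CCT, eIF3 and bright-gene panels (-0.18 and -0.36 in core and cap), and the immunoproteasome runs the other way between the parts.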

How the data were processed

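The deposited table holds log2 values, 1 per probe set and array, for 12 arrays. RMA and Partek 6.3 were used per the submitters' processing notes, with no statement of which step each did, and the genome build is not given in the sources used here. RMA fits the arrays to a common distribution, so a shift shared by most genes cannot be seen. Of 33297 probe sets 19460 carried 1 symbol in the platform annotation, 1754 several and 12083 none.

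The values were used as deposited, without a filter. Limma 3.58.1 under R 4.3.3 was fitted to 18417 genes with 3 group means (9 residual degrees of freedom), or with 4 for the parts of the control (8). The fit with 4 means is the same model as one with the array set (NC1 1 to 3 with the siRNA, NC1 4 to 6 with the mimic) as a block; these sets follow sample order and are not in the labels. Calls used a Benjamini-Hochberg adjusted p under 0.05, and the code was tested on simulated data.

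Members, lists and motifs were chosen with earlier results of these data known; the class of genes at a level of 7 or more was added after the values were seen. Members called against all NC1 arrays, up to 8 more called against a part and the catalytic subunits were to be given array by array.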

Additional observations from a re-analysis of the deposited data

Results flagged for a closer look

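For PSMB9 the change with the mimic from NC1 4 to 6 and the change with the siRNA from NC1 1 to 3 differed by 1.54 on the log2 scale in a test of the difference (limma adjusted p = 2.06e-05). Between the parts of the control themselves the gene differed by -1.56 (NC1 4 to 6 minus NC1 1 to 3). For the 32 proteasome members 0 such differences passed.

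Among 74 genes of the proteasome and its surroundings, an NC1 array stood far from the other 5 for ZFAND5, a stress-induced proteasome partner (NC1 2 at 7.27, the next at 7.47), and for the repressor gene BACH1 (NC1 3 at 5.55, the next at 6.01). Chance flags about 1 in 20 such groups, and 0 of the 32 members were among them.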

How the results depend on the processing

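PSMA5 and PSMD8 kept their direction and their call with SIN3A siRNA under every alternative run. The replicate number as a block (replicate block) gave 3 members called with the siRNA in place of 5, namely PSMA5, PSMD8 and PSMD2, the last not among the 5. Numbers 4 to 6 occur on NC1 arrays alone, so with this block the differences come from NC1 1 to 3 and not from NC1 4 to 6. The block thus raised the siRNA median to 0.27, the value against NC1 1 to 3 alone. It gave 7 members called with the mimic in place of 0. Over all genes the block gave 1281 calls with the mimic in place of 192, and 708 with the siRNA in place of 739. Same-numbered arrays, compared for numbers 1 to 3, did not deviate together (correlations of -0.10 to 0.03), so no pairing by those numbers was seen. A pairing of the mimic arrays with NC1 4 to 6 was not examined. Against NC1 1 to 3 alone the siRNA median was 0.27 and 12 members were called with the mimic, and against NC1 4 to 6 alone the mimic median was 0.0831. The mimic-minus-siRNA median turned from 0.04 to -0.14 when the mimic was set against NC1 4 to 6 and the siRNA against NC1 1 to 3. In the direct comparison 1 member, PSMD8, was called (lower) with dim genes left out, and 1, again PSMD8, without NC1 3 and NC1 6 together, which was added once the values were known. Between the parts of the control a second quantile normalization gave 4 calls in place of 7 (PSMA7, PSMD2 and PSMD10 kept, PSMA3 newly lower). The median there was 0.0227 in place of 0.168, and it was added later. That normalization also lowered the siRNA median from 0.14 to 0.0898 and the mimic median from 0.19 to 0.123, and put the mimic-minus-siRNA median at -0.00686. Leaving out single arrays gave 2 to 7 members called with the siRNA, 0 with the mimic in each case, 0 to 1 between the interventions and 1 to 10 between the parts, with medians of 0.08 to 0.18, 0.14 to 0.20, 0.01 to 0.09 and 0.08 to 0.21. Over all genes the runs without a single array gave 165 to 1033 calls with the siRNA and 39 to 264 with the mimic. Such counts are not given here between the interventions or between the parts. With 3 arrays a treated group, their number limits the precision.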
